A study of Mus musculus with 8 samples.

Results

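The genes described here are the metalloproteinases and their inhibitors, 83 of the 37979 genes listed for 8 RNA-seq libraries of sorted mouse muscle cells. They were taken by symbol, as every listed gene whose symbol is Mmp or Adam with a number, starts with Adamts, or is Timp1 to Timp4. That rule gave 23 matrix metalloproteinases (MMPs), 32 ADAMs, 24 ADAMTS genes, of which 5 are ADAMTS-like, and 4 tissue inhibitors of metalloproteinases (TIMPs). A total of 82 of the 83 were above 0 in at least 1 library and entered the test, and Mmp1b was listed at 0 in all 8. Of the 83 genes, 49 reached a mean of 1 FPKM in a group and 34 stayed under it in both.

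The study set out to find genes that mark muscle pericytes apart from smooth muscle cells (SMCs). Both cell types came from hindlimb muscle of Ai14+/-;SM22α-Cre+ mice of both sexes aged 3 to 4 months, with no treatment, and all 8 libraries carry the same batch label. In these mice Cre recombinase is driven by the SM22α promoter and turns on the red protein tdTomato, so the reporter marks cells in which that promoter is or once was active. Muscle was digested with collagenase and trypsin and sorted by flow cytometry into pericytes (PDGFRβ+tdTomato-, 4 libraries) and SMCs (PDGFRβ+tdTomato+, 4 libraries), both negative for CD31 and CD45. Several sorts were pooled for each library. The labels do not tie the libraries to separate animals, so the p-values measure only the spread between these libraries.

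Metalloproteinases are zinc-dependent enzymes that act outside the cell or at its surface. MMPs cut collagens and other matrix proteins, ADAMs mostly release the outer part of membrane proteins (shedding), and ADAMTS enzymes cut proteoglycans such as aggrecan and versican or trim procollagens. Most are made as inactive zymogens, and the TIMPs bind the active enzymes and block them. In the vessel wall these enzymes and inhibitors are known for remodelling the basement membrane that pericytes and SMCs share with the endothelium.

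Values are FPKM, fragments scaled to the length of the transcript and to the size of the library, so levels of different genes can be set side by side. They are not counts, and how many reads stand behind one is unknown. Their sum over all genes ran from 690247 to 1190435 in pericyte libraries and from 656405 to 737839 in SMC libraries, and 12713 to 13194 genes reached 1 FPKM. Fold changes are differences of mean log2(FPKM + 1), SMCs minus pericytes, a scale that understates the change of low genes. The q value is the limma p-value adjusted over all 27414 genes tested, and a gene with q below 0.05 is called higher in the group named. A gene with q below 0.05 and a log2 fold change over 2 is called enriched.

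Marker genes did not separate the sorts by the cell types that the labels name. Of 7 pericyte markers, only Rgs5 passed the test, and it was higher in SMCs, while by limma 0 of 6 smooth muscle markers passed after adjustment and 3 of 6 had an unadjusted p below 0.05, all 3 higher in SMCs. With replicates 1 and 2 against 3 and 4 as a covariate, the pericyte markers Pdgfrb (limma q = 0.00104), Kcnj8 (limma q = 0.00061) and Abcc9 (limma q = 0.011) and the smooth muscle marker Smtn (limma q = 0.0139) passed too, all higher in SMCs. No label gives that split, which was seen in these same values, so a pass with it, here or below, is not independent support. Pericyte libraries were higher for 5 of 6 T cell markers (summed level 1199 to 1857 FPKM against 18.6 to 47.1) and for 5 of 5 B cell markers (761 to 1966 FPKM against 8.84 to 30.1), and for 2 of 5 mast cell markers (42.4 to 67.8 FPKM against 3.20 to 18.8). SMC libraries were higher for 6 of 7 fibroblast markers (summed level 3355 to 4547 FPKM against 269 to 531), 4 of 5 tenocyte markers (2456 to 3759 FPKM against 196 to 646), 4 of 6 endothelial markers (217 to 751 FPKM against 48.6 to 102) and 4 of 6 macrophage markers (155 to 291 FPKM against 68.0 to 149). The remaining fibroblast marker, Dpp4, was higher on average in pericytes (32.9 against 13.9 FPKM) and did not pass (limma q = 0.0622). None of the markers in these lists was at 0 in all 4 libraries of a group. Fibroblasts and tenocytes are known makers of many of the genes below, and the part of these other cells in any difference reported here was not tested. In bulk libraries, fewer cells of a type and less RNA per cell cannot be told apart. "Pericytes" and "SMCs" below are the sorted populations.

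More of the metalloproteinase and TIMP genes were higher in SMCs than in pericytes, and most did not pass the test. A total of 29 of the 82 tested genes were higher in SMCs, against 11.2% of all genes tested. Only Mmp25 and Adamts6 were higher in pericytes, against 10.6% of all genes, and 51 did not pass. All 4 SMC libraries lay above all 4 pericyte libraries for 30 of the 82, against 12.5% of all genes, and the opposite held for 2, against 12.1%. SMC-enriched were 11 genes, against 2.66% of all genes, namely Mmp2, Mmp3, Mmp13, Mmp14, Mmp19, Mmp23, Adam15, Adamtsl3, Timp1, Timp3 and Timp4. By limma 0 genes were pericyte-enriched, against 3.24% of all genes, and 0 with an unadjusted p below 0.05 in place of q. With a pseudocount of 0.1 in place of 1, Mmp25 was pericyte-enriched (log2 fold change -2.34), against 4.84% of all genes, and 20 genes were SMC-enriched, against 5.18%. The median log2 fold change was 0.28 over the 82 genes and -0.02 over all genes tested.

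The 4 classes differed in how many of their genes passed. All 4 TIMPs were higher in SMCs (median log2 fold change 2.34), as were 9 of 22 tested MMPs (median 0.43), 11 of 24 ADAMTS genes (median 0.96) and 5 of 32 ADAMs (median 0.0031), against 11.2% of all genes tested. The ADAM share, 15.6%, was close to that of all genes. Within the ADAMTS genes, the 5 ADAMTS-like genes all passed and 6 of the other 19 did. Of the 32 ADAMs, 22 had means under 1 FPKM in both groups, and 20 belong to the group known mainly from testis and sperm. Differences between the classes were not tested.

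**Figure D1:**
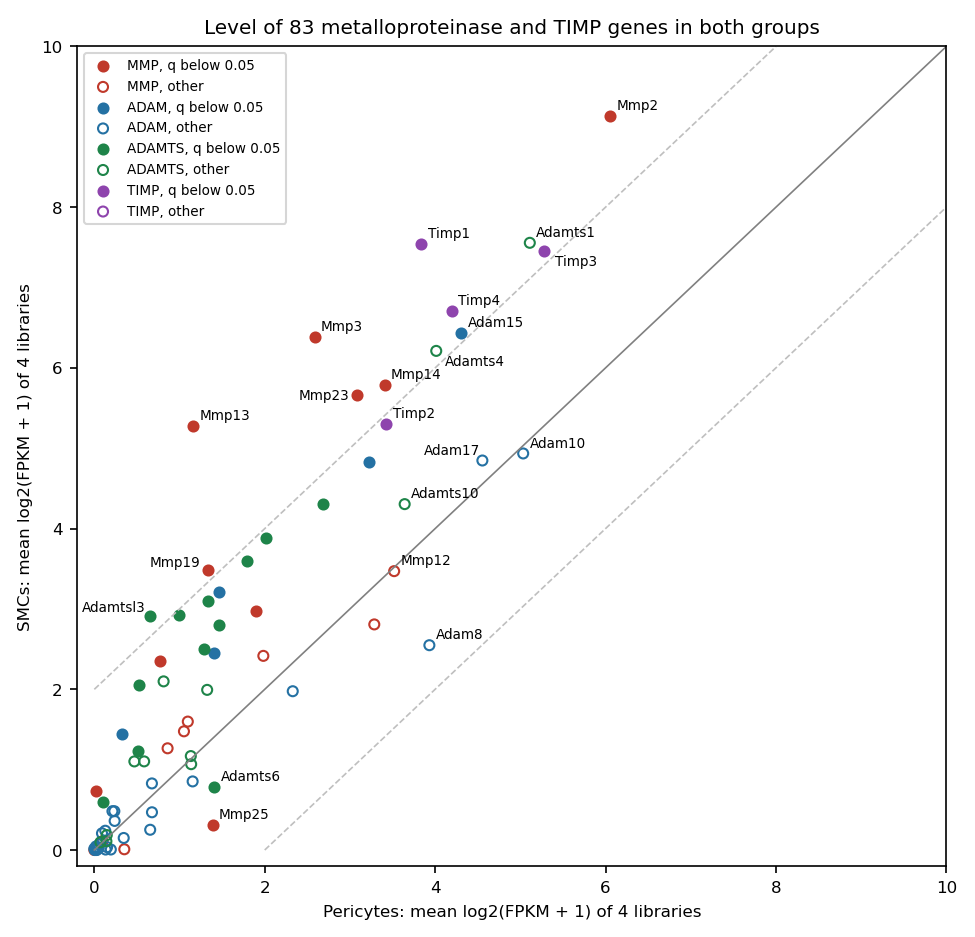
Mean log2(FPKM + 1) of each of the 83 genes in pericytes (x axis) and SMCs (y axis), 4 libraries each, with colour for class and filled points for q below 0.05. The solid line marks equal levels and the dashed lines a log2 difference of 2. Most filled points lie above the solid line, while Mmp25 and Adamts6 are the filled points below it.

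Summed over each class, MMP genes reached 135 ± 18.9 FPKM (SD, n = 4) in pericytes and 865 ± 138 FPKM in SMCs. The TIMPs summed to 98.1 ± 21.5 FPKM in pericytes and 563 ± 64.5 FPKM in SMCs. For both classes the lowest SMC library (707 FPKM for MMPs and 518 FPKM for TIMPs) was above the highest pericyte library (162 FPKM and 119 FPKM). The summed TIMP level was 0.751 ± 0.243 of the summed MMP level in pericytes and 0.660 ± 0.0925 in SMCs, and the groups overlapped (0.494 to 0.981 against 0.528 to 0.742). ADAMTS genes summed to 107 ± 67.9 FPKM in pericytes and 519 ± 400 FPKM in SMCs, with SMC replicate 1 (174 FPKM) below pericyte replicate 4 (201 FPKM). ADAM genes summed to 119 ± 39.6 FPKM in pericytes and 218 ± 84.5 FPKM in SMCs, and the groups overlapped. Together the 83 genes held 0.0579% ± 0.0201 of all FPKM in pericytes and 0.310% ± 0.0928 in SMCs.

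**Figure D2:**
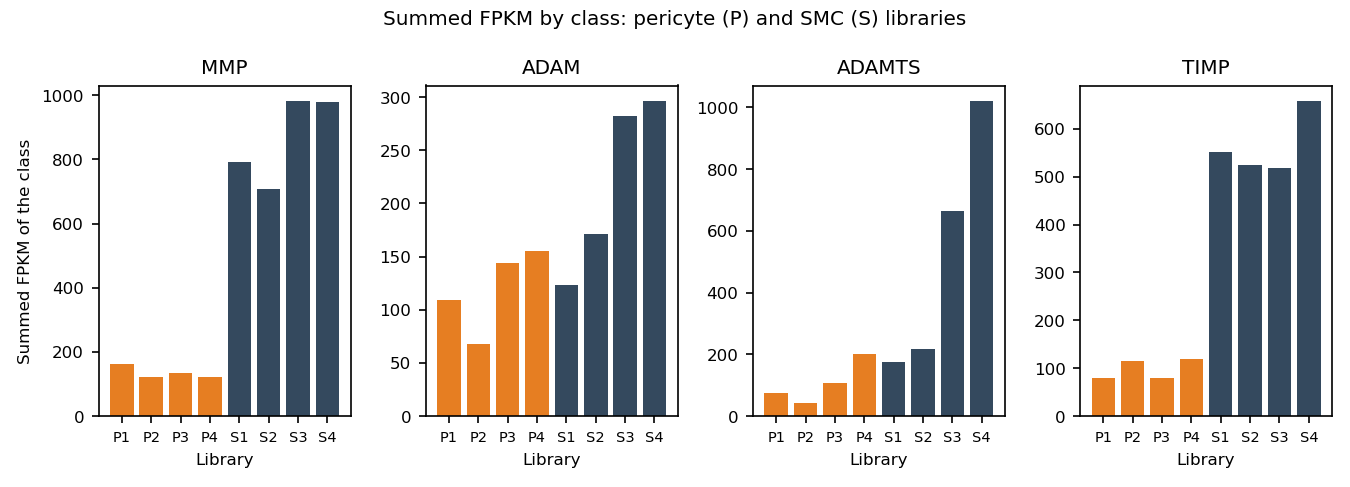
Summed FPKM of the MMP, ADAM, ADAMTS and TIMP genes in each of the 4 pericyte libraries (P1 to P4) and 4 SMC libraries (S1 to S4), with axes starting at 0. MMP and TIMP sums separate the groups, while ADAM and ADAMTS sums overlap and are highest in SMC replicates 3 and 4.

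The TIMPs were all higher in SMCs. Timp1, an inhibitor of most secreted MMPs, had 26.5, 59.6, 3.49 and 4.58 FPKM in pericyte replicates 1 to 4 and 346, 284, 109 and 112 FPKM in SMC replicates 1 to 4. The groups did not overlap, and replicates 3 and 4 were the lower ones in both. The log2 fold change was 3.71 (SE 0.92, limma q = 0.0261). The call was lost when pericyte replicate 3, pericyte replicate 4, SMC replicate 1 or SMC replicate 2 was left out, with Timp1 fold changes of 3.15 to 3.51 and q values of 0.0591 to 0.0683.

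Timp3, which binds to the matrix and also blocks Adam17 and the aggrecan-cutting ADAMTS enzymes, had 33.3, 14.2, 56.3 and 75.2 FPKM in pericytes and 92.6, 117, 248 and 343 FPKM in SMCs. The groups did not overlap, and replicates 3 and 4 were the higher ones in both. Its log2 fold change was 2.17 (SE 0.62, limma q = 0.0439). Leaving out any 1 of pericyte replicates 1 to 3 or SMC replicates 2 to 4 moved the Timp3 q value above the threshold, to between 0.0633 and 0.110, with fold changes of 1.72 to 2.37. The call was also lost with TPM scaling (limma q = 0.0549) and in replicates 1 and 2 alone (limma q = 0.0853).

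Timp4 had 8.57, 26.0, 12.6 and 31.3 FPKM in pericytes and 62.6, 93.2, 112 and 175 FPKM in SMCs. The lowest SMC library was above the highest pericyte library. The log2 fold change of Timp4 was 2.51 (SE 0.47, limma q = 0.00825). Timp2, which blocks MMPs and also takes part in the activation of pro-Mmp2 by Mmp14, had 11.4, 14.9, 6.80 and 7.70 FPKM in pericytes and 50.2, 31.5, 49.3 and 28.0 FPKM in SMCs. It too separated the groups, with a smaller log2 fold change of 1.88 (SE 0.29, limma q = 0.00371). The calls of Timp2 and Timp4 held with every library left out in turn. Both were lost in replicates 1 and 2 alone (limma q = 0.0726 for Timp2 and 0.128 for Timp4).

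Of the TIMP genes, 3 lie inside a synapsin gene on the opposite strand in the annotation (NCBI Build 37). Timp1 (chrX:20447292-20451861) is within Syn1, Timp3 (chr10:85763117-85812251) within Syn3 and Timp4 (chr6:115195634-115201867) within Syn2. Whether reads were counted by strand is not given in the sources used here. Syn1 stayed at or under 0.302 FPKM in all 8 libraries and Syn2 at or under 1.90 FPKM, but Syn3 had 12.9 to 37.3 FPKM in pericytes and 51.6 to 151 FPKM in SMCs. Within each group the libraries ranked in the same order by Syn3 as by Timp3, their annotated exons share 1733 bases, and whether reads of 1 gene were counted for the other was not tested.

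**Figure D3:**
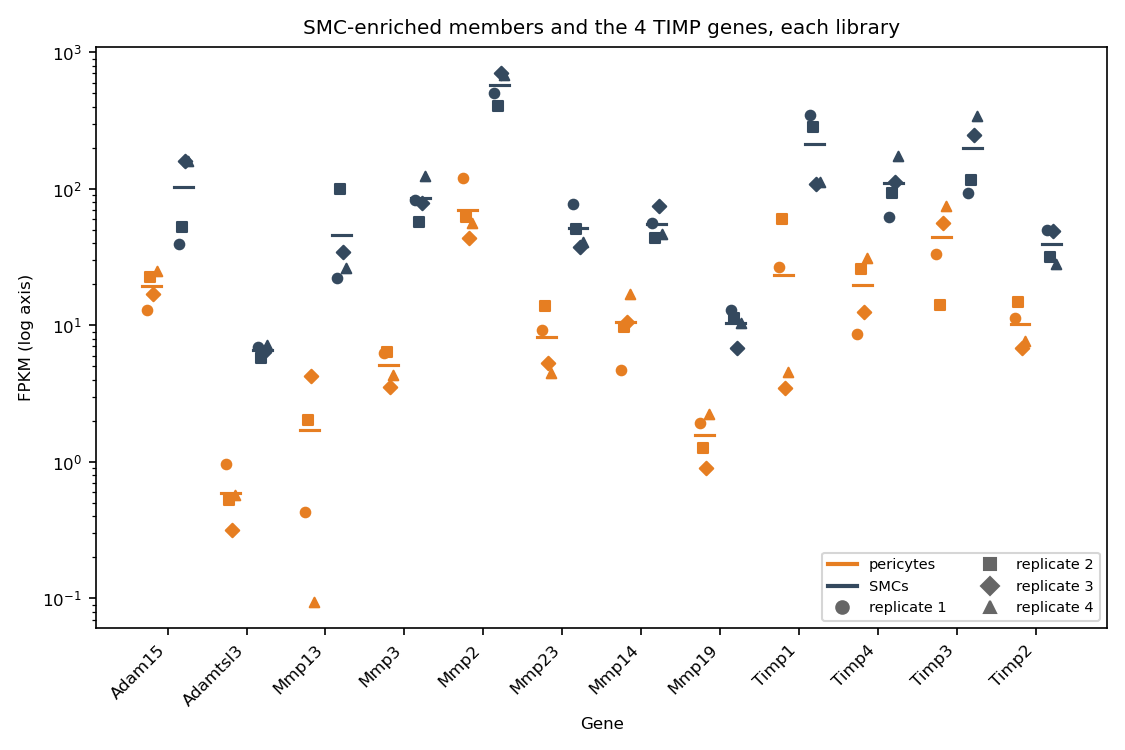
FPKM of the 11 SMC-enriched genes and Timp2 in each library on a log axis, with orange for pericytes, dark blue for SMCs, a marker shape for each replicate number and a bar for the group mean. In all 12 genes each SMC point lies above each pericyte point, and Timp1, Mmp13 and Timp3 have a wide spread within a group.

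Mmp2 had the highest mean FPKM of the 83 genes in both groups. This gelatinase cuts denatured collagen and the type IV collagen of basement membranes. It had 120, 62.2, 43.8 and 56.0 FPKM in pericytes and 505, 406, 700 and 688 FPKM in SMCs. The lowest SMC library was above the highest pericyte library, and the log2 fold change was 3.08 (SE 0.33, limma q = 0.000711). In replicates 1 and 2 alone the Mmp2 fold change was 2.38 and did not pass (limma q = 0.0527). Mmp2 made up 51.0% ± 17.1 (SD, n = 4) of the summed MMP level in pericytes and 65.7% ± 6.45 in SMCs. The other gelatinase, Mmp9, known from neutrophils and macrophages, had means of 4.31 FPKM in pericytes and 4.45 FPKM in SMCs, and the groups overlapped (log2 fold change 0.43, limma q = 0.679). Without pericyte replicate 3, which had 12.1 FPKM, the Mmp9 fold change was 1.01 and passed (limma q = 0.0379).

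Mmp14 and Mmp16 are membrane-anchored MMPs that cut pro-Mmp2 into its active form, and Mmp14 also cuts fibrillar collagen. Mmp14 had 4.73, 9.67, 10.6 and 17.0 FPKM in pericytes and 56.6, 43.4, 75.4 and 46.3 FPKM in SMCs. The groups were well apart, with a log2 fold change of 2.37 (SE 0.35, limma q = 0.00294). Mmp16 was lower, with means of 0.740 FPKM in pericytes and 4.23 FPKM in SMCs (log2 fold change 1.59, limma q = 0.00252). The genes of Mmp2, of its activator Mmp14 and of Timp2 were thus each higher in SMCs, with no overlap between the groups. The membrane-type genes Mmp15 and Mmp17 had means of 1.37 FPKM in pericytes and 2.05 and 2.28 FPKM in SMCs, and neither passed (limma q = 0.656 and 0.558). Both passed with replicates 1 and 2 against 3 and 4 as a covariate (limma q = 0.0291 and 0.0123).

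Mmp25, a membrane-anchored MMP known from leukocytes, went the other way. Its mean was 1.68 FPKM in pericytes and 0.250 FPKM in SMCs, with every pericyte library above every SMC library (log2 fold change -1.07, SE 0.18, limma q = 0.00562). The T and B cell markers given above, and Ptprc, the gene of CD45 (80.6 to 230 FPKM in pericytes and 4.34 to 11.9 FPKM in SMCs), were also higher in pericytes. Other leukocyte markers were mixed. By limma 2 of 5 mast cell markers were higher in pericytes, 0 of 6 neutrophil markers passed and 4 of 6 macrophage markers were higher in SMCs. The part of any of these cells in the Mmp25 difference was not tested.

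A pair of secreted MMPs from 1 gene cluster had large fold changes. Mmp13, a collagenase, had 0.427, 2.04, 4.29 and 0.0947 FPKM in pericytes and 22.3, 99.7, 34.6 and 26.2 FPKM in SMCs, with SMC replicate 2 the highest. Its log2 fold change was 4.12 (SE 0.64, limma q = 0.00371). The Mmp13 call was lost in replicates 1 and 2 alone (fold change 4.54, limma q = 0.0750) and in replicates 3 and 4 alone (3.69, limma q = 0.0649). Mmp3, a stromelysin that cuts proteoglycans and activates other pro-MMPs, had 6.31, 6.39, 3.51 and 4.36 FPKM in pericytes and 82.4, 57.6, 78.2 and 124 FPKM in SMCs. The Mmp3 log2 fold change was 3.80 (SE 0.26, limma q = 0.000105), and it passed under every alternative run. Neither gene overlapped between the groups.

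These 2 genes sit among 10 MMP genes between positions 7272514 and 7699585 of chromosome 9 (NCBI Build 37). The order along the chromosome is Mmp13, Mmp12, Mmp1b, Mmp3, Mmp1a, Mmp10, Mmp8, Mmp27, Mmp20 and Mmp7. Of the 9 genes tested, Mmp13, Mmp3 and Mmp27 were higher in SMCs, against 11.2% of all genes tested, and the others did not pass. Mmp27 had means under 1 FPKM in both groups. Mmp12, which overlaps Mmp1b on the opposite strand, lies between Mmp13 and Mmp3 and did not pass.

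The promoters of Mmp13 and Mmp3 are shown because these 2 genes of the cluster were SMC-enriched and both carry an AP-1 motif close to the start. Each is the 250 bases before the annotated start, on the plus strand, from the RefSeq promoter table (GRCm38.p6), and each matched NCBI Build 37 exactly and at 1 place, at chr9:7272264-7272513 for Mmp13 and chr9:7445572-7445821 for Mmp3. Capitals mark the AP-1 motif, which starts 35 bases before the Mmp13 start and 46 bases before the Mmp3 start.
Mmp13 promoter: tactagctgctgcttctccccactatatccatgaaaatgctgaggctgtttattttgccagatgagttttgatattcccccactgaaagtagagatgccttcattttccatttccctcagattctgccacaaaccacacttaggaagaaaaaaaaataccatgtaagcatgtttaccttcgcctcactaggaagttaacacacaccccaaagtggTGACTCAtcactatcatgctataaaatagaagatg
Mmp3 promoter: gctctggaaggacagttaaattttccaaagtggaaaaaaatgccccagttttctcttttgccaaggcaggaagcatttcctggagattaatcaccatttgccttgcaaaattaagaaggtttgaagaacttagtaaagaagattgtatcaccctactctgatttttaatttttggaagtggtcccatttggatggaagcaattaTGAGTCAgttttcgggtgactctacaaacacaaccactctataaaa

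The AP-1 motif was searched as TGANTCA on both strands, and a TATA box as TATAAA, in the 250 bases before the start. The table holds a promoter for 52 of the 83 genes and for 9 of the 11 SMC-enriched ones. The AP-1 letters were in 7.82% of the 27025 genes of the table, in 11 of the 52 (21.2%) and in 8 of 18 MMP genes (44.4%). Of the 21 genes higher in SMCs that have a promoter in the table, Mmp13 and Mmp3 held it (9.52%), as the only ones of the 9 SMC-enriched genes (22.2%). The TATA letters were in 14.3% of all genes, 13 of the 52 (25.0%), 8 of 18 MMP genes (44.4%), 3 of the 21 higher in SMCs (14.3%) and 2 of the 9 SMC-enriched genes (22.2%). A CArG box, the motif of serum response factor, was in 1.62% of all genes and in 0 of the 52. Within the cluster the AP-1 letters were also in a promoter of Mmp1a, Mmp7, Mmp10, Mmp12 and Mmp20, which did not pass, and of Mmp1b, which was listed at 0.

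The remaining SMC-enriched MMPs were Mmp23 and Mmp19. Mmp23, a membrane-bound MMP that is released when its anchor is cut, had 9.27, 13.8, 5.26 and 4.47 FPKM in pericytes and 77.1, 50.9, 37.8 and 40.7 FPKM in SMCs. Replicates 1 and 2 were the higher ones in both groups, the groups did not overlap, and the log2 fold change was 2.58 (SE 0.37, limma q = 0.00253). Mmp19, which cuts basement membrane proteins, had 1.92, 1.26, 0.908 and 2.25 FPKM in pericytes and 13.0, 11.4, 6.86 and 10.4 FPKM in SMCs. All SMC libraries were above all pericyte libraries, with a log2 fold change of 2.14 (SE 0.23, limma q = 0.000755). The Mmp19 gene overlaps 1110012D08Rik on the opposite strand, which had 5.64 to 9.46 FPKM in pericytes and 14.8 to 18.4 FPKM in SMCs. Whether reads of 1 gene were counted for the other was not tested. Mmp11, a stromelysin that is activated inside the cell by furin, had means of 2.77 FPKM in pericytes and 7.36 FPKM in SMCs (log2 fold change 1.08, limma q = 0.0366), and it passed in only 1 of the 8 fits with a library left out. The Mmp11 gene also overlaps Chchd10 on the opposite strand, which had 20.3 to 158 FPKM.

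Mmp8 and Mmp12, MMPs known from leukocytes, did not separate the groups. Mmp8, the neutrophil collagenase, had means of 10.8 FPKM in pericytes and 7.47 FPKM in SMCs (log2 fold change -0.48, limma q = 0.721). It had 7.43, 9.71, 22.9 and 3.20 FPKM in pericytes and 10.4, 10.1, 8.36 and 1.03 FPKM in SMCs. The 6 neutrophil markers summed to 566, 4340, 4403 and 971 FPKM in pericyte replicates 1 to 4 and to 2828, 3604, 1669 and 283 FPKM in SMC replicates 1 to 4. Both were highest in pericyte replicate 3 and lowest in SMC replicate 4, but the order of the other libraries differed, and pericyte replicate 2 had nearly the neutrophil sum of replicate 3 with a lower Mmp8 level. By limma 0 of the 6 markers passed, also by the unadjusted p, with q values of 0.841 to 0.991. Their part in the Mmp8 values was not tested. Mmp12, the macrophage elastase, had means of 12.7 FPKM in pericytes and 10.6 FPKM in SMCs (log2 fold change -0.05, limma q = 0.967). Mmp28 was close to 1 FPKM in both groups (0.841 and 1.42 FPKM, limma q = 0.121).

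**Figure D4:**
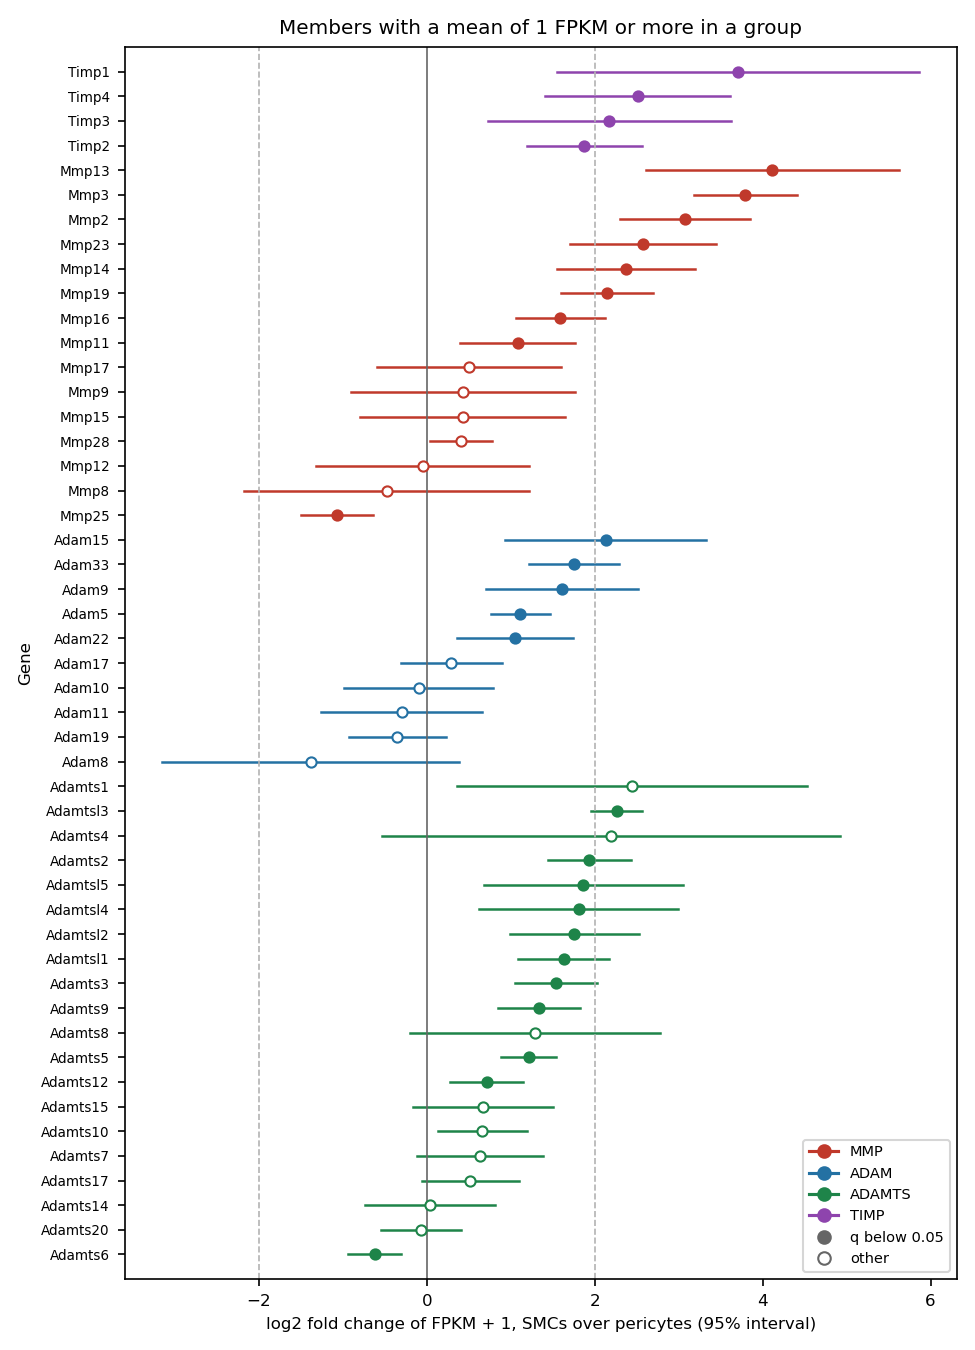
Log2 fold change of FPKM + 1, SMCs over pericytes, with its 95% interval from limma, for the 49 genes that reach a mean of 1 FPKM in a group, by class. Filled points have q below 0.05. All 4 TIMPs lie to the right of 0, and the filled points to the left of 0 are Mmp25 and Adamts6.

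The best known sheddases, Adam10 and Adam17, did not pass the test. Adam10, which cuts Notch receptors, had 35.6, 15.6, 46.9 and 38.5 FPKM in pericytes and 18.3, 30.8, 34.1 and 39.7 FPKM in SMCs. The groups overlapped widely (log2 fold change -0.10, 95% interval -0.98 to 0.78, limma q = 0.892), and the sign turned under TPM scaling (0.13). Adam17, which releases tumour necrosis factor and growth factors of the EGF family, had 28.8, 13.6, 24.9 and 26.0 FPKM in pericytes and 26.0, 36.5, 21.7 and 28.9 FPKM in SMCs. Pericyte replicate 2 was the lowest library for both genes. The Adam17 log2 fold change was 0.29 (95% interval -0.31 to 0.90, limma q = 0.537).

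Adam15, a membrane ADAM with a disintegrin domain, was SMC-enriched. It had 13.0, 22.7, 17.0 and 24.9 FPKM in pericytes and 39.5, 52.8, 159 and 161 FPKM in SMCs. SMC replicates 3 and 4 were far above SMC replicates 1 and 2, and all were above the pericytes. The log2 fold change was 2.13 (SE 0.51, limma q = 0.0231). Without pericyte replicate 1 or 3 or SMC replicate 3 or 4 the Adam15 fold change was 1.83 to 2.08 and did not pass (limma q = 0.0533 to 0.0612). In replicates 1 and 2 alone it was 1.36 and did not pass (limma q = 0.112). Adam15 made up 18.3% ± 10.3 (SD, n = 4) of the summed ADAM level in pericytes and 43.5% ± 13.8 in SMCs.

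Other catalytic ADAMs were split. Adam9 had means of 9.11 FPKM in pericytes and 28.2 FPKM in SMCs (log2 fold change 1.61, limma q = 0.0231), a call lost without SMC replicate 2, 3 or 4. Adam33, known from smooth muscle and fibroblasts of the airway, had means of 1.84 FPKM and 8.39 FPKM (log2 fold change 1.75, limma q = 0.00168). Adam19 had means of 4.25 FPKM in pericytes and 2.96 FPKM in SMCs (limma q = 0.412).

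Adam8, a sheddase known from leukocytes, had a mean of 20.03 FPKM in pericytes (4.25 to 35.7) and 5.58 FPKM in SMCs (1.92 to 9.40), with SMC replicates 3 and 4 (9.40 and 7.45 FPKM) above pericyte replicates 1 and 2 (7.34 and 4.25 FPKM). Its log2 fold change of -1.38 did not pass (limma q = 0.275), and it passed with replicates 1 and 2 against 3 and 4 as a covariate (limma q = 0.0138). Within replicates 1 and 2 the Adam8 difference was -0.86 and within replicates 3 and 4 it was -1.91.

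Of the ADAMs without an active enzyme, Adam22 had means of 1.74 FPKM in pericytes and 4.70 FPKM in SMCs (log2 fold change 1.05, limma q = 0.0428), which passed in 2 of the 8 fits with a library left out. Adam11 had means of 1.39 and 0.918 FPKM and did not pass (limma q = 0.692), and Adam23 had means under 1 FPKM in both groups. Among the 20 ADAMs known mainly from testis and sperm, only Adam5 reached a mean of 1 FPKM in a group, with means of 0.265 FPKM in pericytes and 1.75 FPKM in SMCs (log2 fold change 1.12, limma q = 0.00195). Adam5 and Adam9 lie in a cluster of 5 ADAM genes on chromosome 8, with Adam32 between them. Of the 5, those 2 were higher in SMCs, against 11.2% of all genes tested.

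Adamts1 and Adamts4, which cut aggrecan and versican, were the most abundant ADAMTS genes and did not pass. Adamts1 had 28.6, 9.99, 41.1 and 103 FPKM in pericytes and 61.8, 112, 332 and 530 FPKM in SMCs. Pericyte replicate 4 was above SMC replicate 1, so the groups overlapped. The Adamts1 log2 fold change was 2.45 (SE 0.89, limma q = 0.0997), with 2.22 within replicates 1 and 2 and 2.67 within replicates 3 and 4. With that split as a covariate Adamts1 passed (limma q = 0.00843), as it did with a filter at 1 FPKM in 4 libraries (limma q = 0.0268).

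Adamts4 had 7.77, 4.57, 26.7 and 49.2 FPKM in pericytes and 16.6, 25.8, 192 and 333 FPKM in SMCs. Replicates 3 and 4 were the higher ones in both groups, and pericyte replicates 3 and 4 were above SMC replicate 2. The Adamts4 log2 fold change was 2.20 (SE 1.16, limma q = 0.260), with 1.63 within replicates 1 and 2, 2.76 within replicates 3 and 4, and a limma q of 0.00589 with the split as a covariate.

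The other proteoglycan-cutting ADAMTS genes were low. Adamts5, the neighbour of Adamts1 on chromosome 16 and a main aggrecan-cutting enzyme of cartilage, had means of 1.48 FPKM in pericytes and 4.67 FPKM in SMCs and was tightly spread (log2 fold change 1.21, SE 0.14, limma q = 0.00104). Adamts9 had means of 1.84 FPKM and 6.01 FPKM (log2 fold change 1.34, limma q = 0.00357). Adamts8 and Adamts15 were higher on average in SMCs (0.988 against 4.34 FPKM, and 1.58 against 3.30 FPKM) and did not pass (limma q = 0.224 and 0.264). Both passed with replicates 1 and 2 against 3 and 4 as a covariate (limma q = 0.0279 and 0.0184). Adamts20 was at 1.25 and 1.11 FPKM (limma q = 0.858).

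Of the procollagen-trimming enzymes, Adamts2 had means of 1.02 FPKM in pericytes and 6.80 FPKM in SMCs (log2 fold change 1.94, limma q = 0.000755) and Adamts3 had means of 0.451 and 3.27 FPKM (log2 fold change 1.54, limma q = 0.00206). Both separated the groups and passed under every alternative run. Adamts14, the other enzyme of this kind, was at 1.27 and 1.37 FPKM (limma q = 0.958).

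Adamts10, which binds fibrillin, had 12.7, 7.41, 13.6 and 13.4 FPKM in pericytes and 16.6, 16.1, 17.8 and 26.0 FPKM in SMCs. All SMC libraries were above all pericyte libraries, yet the log2 fold change of 0.66 (SE 0.23) did not pass (limma q = 0.0843). With replicates 1 and 2 against 3 and 4 as a covariate Adamts10 passed (limma q = 0.0366). Adamts6, its close relative, was the ADAMTS gene that was higher in pericytes, with means of 1.66 FPKM against 0.748 FPKM in SMCs (log2 fold change -0.62, limma q = 0.0159). That call was lost with TPM scaling (limma q = 0.109), with an intensity trend in the test (limma q = 0.0642), in replicates 1 and 2 alone (limma q = 0.153) and in replicates 3 and 4 alone (limma q = 0.0678). The Adamts6 call was also lost with the replicate number as a block, as given below. Adamts12 was higher in SMCs, with means of 0.464 FPKM in pericytes and 1.35 FPKM in SMCs (log2 fold change 0.71, limma q = 0.0317), and passed in 2 of the 8 fits with a library left out. Adamts18, under 1 FPKM in both groups, was also higher in SMCs. Adamts7 (means of 0.392 and 1.33 FPKM) and Adamts17 (0.518 and 1.23 FPKM) did not pass (limma q = 0.239 and 0.206).

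The ADAMTS-like genes encode matrix proteins with the ADAMTS binding domains but no protease domain, and several bind fibrillin fibres. Adamtsl3 had 0.957, 0.528, 0.316 and 0.572 FPKM in pericytes and 6.93, 5.80, 6.39 and 7.17 FPKM in SMCs. The values of Adamtsl3 were close together within each group and far apart between them, with a log2 fold change of 2.26 (SE 0.13, limma q = 4.82e-05), the smallest q of the 83 genes. Adamtsl1 had means of 5.59 FPKM in pericytes and 19.1 FPKM in SMCs (log2 fold change 1.63, limma q = 0.00240) and Adamtsl2 of 1.60 and 8.10 FPKM (log2 fold change 1.76, limma q = 0.00832). Adamtsl4 had means of 2.58 and 13.3 FPKM (log2 fold change 1.81, limma q = 0.0410) and Adamtsl5 of 3.44 and 15.6 FPKM (log2 fold change 1.87, limma q = 0.0363). Adamtsl4 passed in 2 and Adamtsl5 in 3 of the 8 fits with a library left out.

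Replicates 1 and 2 stood apart from replicates 3 and 4 for a set of these genes in both groups, a split the labels do not give. In 18 of the 83 genes both libraries 3 and 4 were above both libraries 1 and 2 in each group, against 8.46% of all genes, and in 8 the order was the opposite, against 12.9%. Those 18 include Adamts1, Adamts4, Adamts8, Adamts15, Adam8, Adam10, Mmp15, Mmp17 and Timp3, and the 8 include Timp1, Mmp23 and Adamts3. Schwann cell markers followed the split in both groups, with summed levels of 147 and 103 FPKM in pericyte replicates 1 and 2 against 657 and 534 FPKM in replicates 3 and 4, and of 125 and 108 FPKM against 344 and 330 FPKM in SMCs. Pericyte markers did too, with 32.5 and 41.4 FPKM against 61.0 and 96.5 FPKM in pericytes and 73.7 and 86.0 FPKM against 227 and 319 FPKM in SMCs. Summed macrophage and skeletal muscle fibre markers were also higher in replicates 3 and 4 in both groups, by less, and B cell and satellite cell markers had the opposite order in both. Fibroblast markers, endothelial markers (217 and 346 FPKM in SMC replicates 1 and 2, 557 and 751 FPKM in replicates 3 and 4) and smooth muscle markers (1715 and 1989 FPKM against 3318 and 5521 FPKM) followed it in SMCs and not in pericytes. Tenocyte markers had the opposite order in pericytes only and neutrophil markers in SMCs only. The part of these cells in the split was not tested. With the split as a covariate, 9 more of the genes passed, namely Adam8, Adam34 (means under 1 FPKM in both groups), Adamts1, Adamts4, Adamts8, Adamts10, Adamts15, Mmp15 and Mmp17, and none of the 31 called genes was lost. In that fit 36 were higher in SMCs, against 14.3% of all genes tested, and 4 in pericytes, against 13.8%, so calls rose over all genes too. The 9 added genes all follow the split in both groups, and the split was seen in these same values. A smaller spread with the covariate was thus built in for them, and these passes are not independent support.

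**Figure D5:**
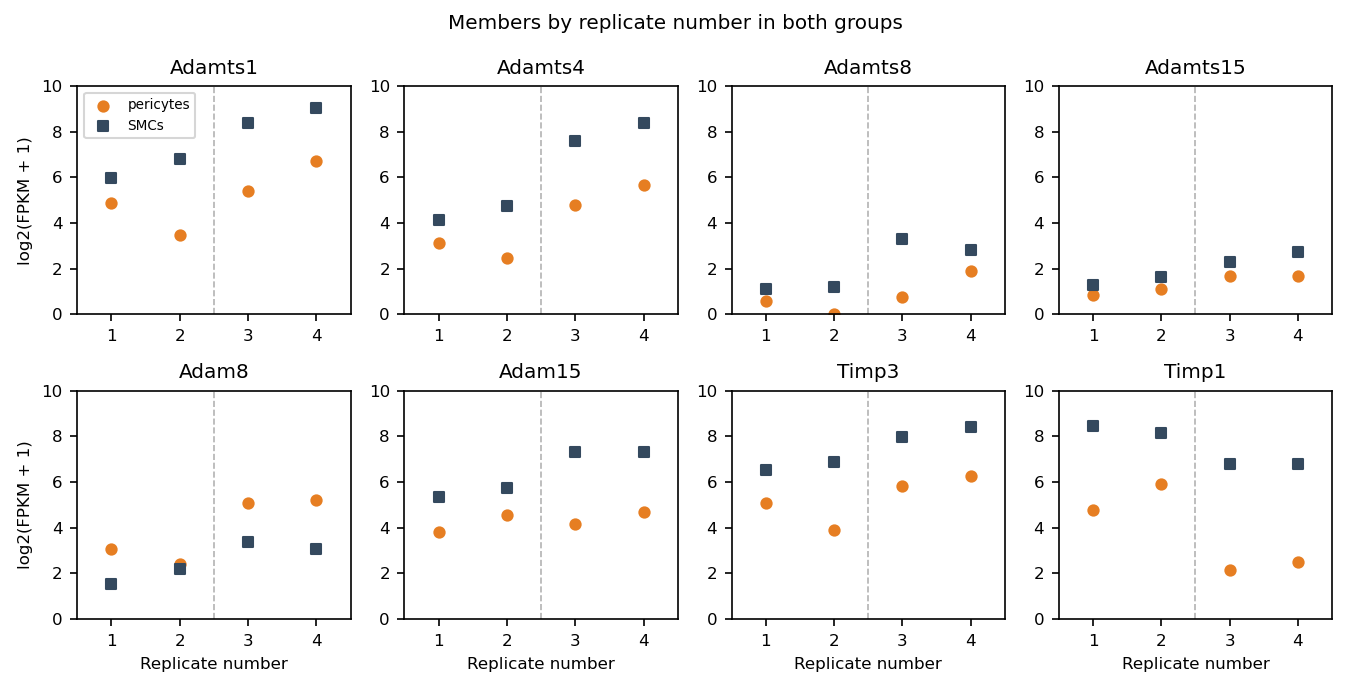
Log2(FPKM + 1) of 8 genes by replicate number, with circles for pericytes and squares for SMCs and a dashed line between replicates 2 and 3. Adamts1, Adamts4, Adamts8, Adamts15, Adam8 and Timp3 are higher to the right of the line in both groups, Adam15 in SMCs, and Timp1 is lower to the right in both.

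Other genes of the pathway were taken from 6 lists and read against the same 11.2% and 10.6% of all genes tested. Of 11 genes of zymogen activation, 7 were higher in SMCs and 1 in pericytes. Plat, the tissue plasminogen activator, had means of 25.9 FPKM in pericytes and 171 FPKM in SMCs (log2 fold change 2.70, limma q = 0.000193), and Serpine2, an inhibitor of plasminogen activators and thrombin, had 49.1 and 292 FPKM (log2 fold change 2.56, limma q = 0.000229). Pcsk5, a proprotein convertase, was the other SMC-enriched gene of the group. Furin, the convertase that activates Mmp11 and Mmp14, was the gene higher in pericytes (10.1 against 4.91 FPKM, log2 fold change -0.94, limma q = 0.0131).

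Of 10 genes of other inhibitors and clearance, 7 were higher in SMCs and 0 in pericytes by limma (also by the unadjusted p). Pcolce, an enhancer of procollagen processing, had means of 53.2 FPKM in pericytes and 494 FPKM in SMCs (log2 fold change 3.35, limma q = 0.00215). Lrp1, the receptor that takes up MMPs and ADAMTS enzymes, had means of 7.48 and 29.7 FPKM (log2 fold change 1.79, limma q = 0.0111). Reck, a membrane inhibitor of MMPs, had 4.12 and 10.1 FPKM and did not pass (limma q = 0.0764). It passed with replicates 1 and 2 against 3 and 4 as a covariate (limma q = 0.00423).

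Partners of the sheddases moved both ways, with 3 of 9 higher in SMCs and 2 in pericytes. Rhbdf1, which carries Adam17 to the cell surface, had means of 6.24 FPKM in pericytes and 25.9 FPKM in SMCs (log2 fold change 1.89, limma q = 0.00212), while its relative Rhbdf2 had 14.1 and 13.8 FPKM (limma q = 0.946). Frmd8, which keeps Adam17 at the surface, was higher in pericytes (36.9 against 9.81 FPKM, log2 fold change -1.90, limma q = 0.00875). Among tetraspanins that bind Adam10, Tspan14 was higher in pericytes (74.5 against 36.9 FPKM, limma q = 0.000228), while Tspan15 and Tspan17 were higher in SMCs (limma q = 0.0284 and 0.000525). Adam10 and Adam17 themselves did not pass, as given above.

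Of 10 other metalloproteinases, 4 were higher in SMCs and 0 in pericytes by limma (also by the unadjusted p), among them Bmp1, a procollagen C-proteinase (3.20 against 9.70 FPKM, log2 fold change 1.43, limma q = 0.0219), and Mme, neprilysin (0.954 against 9.45 FPKM, log2 fold change 2.49, limma q = 0.000848). Of 11 matrix substrates, 8 were higher in SMCs and 0 in pericytes by limma (also by the unadjusted p). Col1a1 had means of 95.5 FPKM in pericytes and 1071 FPKM in SMCs (log2 fold change 3.48, limma q = 0.00502), Fn1 had 12.7 and 94.7 FPKM (log2 fold change 2.66, limma q = 0.00722), and the proteoglycan Vcan had 1.51 and 6.20 FPKM (log2 fold change 1.51, limma q = 0.00917). Acan, the aggrecan gene, was under 1 FPKM on average in both groups. Col1a1 and Col1a2 are also among the fibroblast markers.

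Of 20 membrane proteins that are shed, 7 were higher in SMCs and 3 in pericytes. Hbegf, an EGF family growth factor released by Adam17, had means of 41.9 FPKM in pericytes and 172 FPKM in SMCs (log2 fold change 2.01, limma q = 0.000915). Tnfrsf1b and Il6ra, receptors that are also shed, were among those higher in pericytes (limma q = 0.0332 and 0.00578). Notch1 and Notch2 did not pass (limma q = 0.934 and 0.755).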

How the data were processed

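Bulk RNA-seq libraries of sorted mouse muscle pericytes and SMCs (4 each) were made with an ultra-low input kit and Nextera XT and sequenced as read pairs. Reads were checked with FastQC and aligned with Bowtie2 and TopHat to NCBI Build 37 with an Ensembl annotation. The authors deposited FPKM per gene and library, with no filter and no log transform. The program that computed FPKM and the use of strand are not given in the sources used here. An exact 0 can be a failed estimate, since Ubb, used by every cell, is listed at 0 in all 8 libraries.

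FPKM were taken as log2(FPKM + 1) and fitted with limma 3.58.1 (R 4.3.3, lmFit and eBayes, no covariate) over the 27414 of 37979 listed genes above 0 in at least 1 library, with Benjamini-Hochberg adjustment over all of them. The fit was tested on simulated data. Enriched means q below 0.05 and a log2 fold change over 2. No depth is known behind a value, and counting error could not be computed. Relative depth, from values under 0.3 FPKM, ran from 0.867 to 1.07.

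Values in every library are given for enriched genes, the 4 TIMPs, the 3 genes of highest mean FPKM in each class and Mmp8. Other genes that reach a mean of 1 FPKM in a group are named with group means, some with single values for libraries that stand apart, and genes under it without values. The genes, lists and tests were chosen with earlier results of these data known. The fit was repeated with 0.1 as the pseudocount, on genes at 1 FPKM in 4 libraries, on all listed genes, with TPM, quantile and median-ratio scaling, the replicate number as a block, replicates 1 and 2 against 3 and 4 as a covariate or fitted alone, an intensity trend, class means for medians, and without each single library. Positions came from GENCODE vM1 for NCBI Build 37, which holds all 83 genes. Promoters came from a RefSeq table (GRCm38.p6). A gene of the shed membrane proteins is counted in its list and not reported here. Protein sequences, other cell sorts and staining were not analysed here. Figures were made with Python 3.11.15, pandas 2.3.3 and matplotlib 3.10.9.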

Additional observations from a re-analysis of the deposited data

Results flagged for a closer look

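In groups of 4 libraries, a library was looked at again where its gap to the nearest other library was larger than Dixon's critical value allows. Of 106 groups examined 4 did so, where chance alone gives about 1 in 20, or 5.3. Adamts10 was low in pericyte replicate 2, at 7.41 FPKM against 12.7 to 13.6 FPKM in the other pericyte libraries. Mmp8 was low in SMC replicate 4, at 1.03 FPKM against 8.36 to 10.4 FPKM, and the summed neutrophil markers were also lowest there, at 283 FPKM against 1669 to 3604 FPKM. Mmp25 was high in SMC replicate 4, at 0.461 FPKM against 0.177 to 0.181 FPKM, all below every pericyte library. The median log2(FPKM + 1) over the 32 ADAM genes was high in pericyte replicate 1, at 0.435 against 0.123 to 0.140, a median set by genes under 1 FPKM.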

How the results depend on the processing

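Of the 29 called genes that reach a mean of 1 FPKM in a group, 11 passed in every alternative, 20 passed with every library left out in turn, and all kept their direction. Counts that moved by over 1.5 times are given here, and the cause of each move was not tested. A pseudocount of 0.1 gave 20 SMC-enriched genes and 1 pericyte-enriched gene. Testing every listed gene kept 20 of the 29 genes higher in SMCs, and left 2 ADAMs and 2 TIMPs among them (Timp1 q = 0.0605, Timp3 q = 0.0940). TPM scaling moved the median log2 fold change of the 13612 genes with a mean of 1 FPKM or more, pericytes minus SMCs, from 0.05 to -0.15, and gave 1 gene higher in pericytes and 0 ADAMTS genes. The intensity trend gave the same counts, 1 and 0. The covariate for replicates 1 and 2 against 3 and 4 gave 4 genes higher in pericytes, 2 of them ADAMs. Replicates 1 and 2 alone gave 15 genes higher in SMCs (1 ADAM, 7 ADAMTS genes and 1 TIMP), 1 higher in pericytes (0 ADAMTS genes) and 6 SMC-enriched, and replicates 3 and 4 alone gave 3 ADAMs higher in SMCs, 1 ADAM higher in pericytes and 0 ADAMTS genes higher in pericytes. With 1 library left out, 21 to 26 genes were higher in SMCs, 2 to 3 higher in pericytes, 9 to 13 SMC-enriched and 0 pericyte-enriched. By class, 2 to 5 ADAMs, 8 to 10 ADAMTS genes, 8 to 9 MMPs and 2 to 3 TIMPs were higher in SMCs and 0 to 1 ADAMs higher in pericytes.

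The library median of a class, SMCs minus pericytes, was 0.53 for MMPs, -0.03 for ADAMs, 1.15 for ADAMTS genes and 2.73 for TIMPs. It moved to 1.41, 0.25 and 1.41 for the first 3 with a filter at 1 FPKM, which drops low genes, to 1.63 for ADAMTS genes with a pseudocount of 0.1, to 0.17 for ADAMs with means for medians, and for TIMPs to 2.20 in replicates 1 and 2 and 3.26 in replicates 3 and 4. The block, the covariate, the trend and testing all listed genes change no library level and give no value for it.

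Genes that turned in sign had not passed. With TPM scaling, log2 fold changes became 0.13 for Adam10, 0.061 for Adamts20 and 0.17 for Mmp12, and with quantile scaling 0.042 for Mmp12. In replicates 1 and 2 alone they were 0.0055 for Adam10, -0.095 for Adamts14, 0.33 for Adamts20, 0.37 for Mmp12 and 0.24 for Mmp8, and in replicates 3 and 4 alone -0.023 for Adam17. With 1 library left out the ranges were -0.42 to 0.12 for Adam10, -0.17 to 0.23 for Adamts14, -0.25 to 0.041 for Adamts20, -0.53 to 0.25 for Mmp12 and -0.88 to 0.12 for Mmp8.

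Pericyte and SMC libraries share replicate numbers, but nothing ties same-numbered libraries to the same animals, so the numbers were not taken as pairs. Deviations of same-numbered libraries from the group means correlated at 0.0794 to 0.474 over 4 pairs (across 13612 genes). Libraries of different number correlated at -0.451 to 0.538, and 5 of 8 libraries correlated best with their own number. With the replicate block, the same 29 genes were higher in SMCs, Adamts1, Adamts4, Adamts15 and Mmp17 passed as well (q = 0.0232, 0.0195, 0.0288 and 0.0472), Adamts6 did not (q = 0.0582), and 1 ADAM and 0 ADAMTS genes were higher in pericytes.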
